A study of Mus musculus with 39 samples.

Results

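The mouse genes with a Clec symbol encode receptors and related proteins with a C-type lectin domain, and 31 of the 23337 gene symbols in the count tables belonged to them. A gene was taken when its symbol was Clec followed by a number and a lower-case letter, whatever its measured level. Of the 31 genes, 21 passed edgeR's filter on low counts and were tested beside 12450 genes in all. The other 10 were Clec12b, Clec14a, Clec18a, Clec2e, Clec2g, Clec2h, Clec2l, Clec3a, Clec4f and Clec4g, and 5 of these had no count in any library (Clec14a, Clec18a, Clec2e, Clec2h and Clec4f). A total of 3 counts, taken as the limit that 0 counts allow, corresponded to 0.105 to 0.179 CPM (counts scaled by depth with TMM-adjusted library totals) depending on the group, for counting error only.

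RNA was measured in 39 libraries, 3 in each of 13 groups, from C57BL/6 mice between 21 and 37 weeks old. HUPO mice (genotype Flipflox/floxCD11ccre) had established arthritis and were designed to delete floxed Flip (gene symbol Cflar), which restrains caspase-8 downstream of death receptors, in cells that express cre from CD11c. Control mice (Flipflox/floxCD11c+) carried the floxed gene too. Blood gave CM (classical monocytes) and NCM (the non-classical kind) in both arms. Ankle joints gave 4 populations labelled synovial macrophages (FI1, FI3, FH1 and FH2) in both arms, and another, FI2, in HUPO mice alone. Over 400 cells were sorted for a library, and libraries are named here by the letter L and the number in their titles. The labels do not say which libraries share an animal, so the spread between libraries may in part be technical.

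C-type lectin receptors bind sugars, lipids or proteins of microbes and damaged cells. Activating members signal through an immunoreceptor tyrosine-based activation motif (ITAM), carried by the partner chains Fcer1g or Tyrobp or, in a shortened form called hemITAM, in their own tail, and pass the signal to the kinase Syk and the adaptor Card9. Inhibitory members carry an ITIM motif and recruit phosphatases such as Ptpn6. Monocytes, macrophages, dendritic cells and neutrophils all use members of the family to sense fungi, mycobacteria, dying cells or crystals.

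Most of the family lies on mouse chromosome 6, which held 23 of the 31 genes in the GENCODE annotation of GRCm38 (the build named mm10 by the submitters). The Clec4 cluster (chr6:122921848-123289870, 368 kb) held 9 of them, in the order Clec4a1, Clec4a3, Clec4a4, Clec4b1, Clec4a2, Clec4b2, Clec4n, Clec4d and Clec4e. Clec4d and Clec4e stood end to end on opposite strands with 6523 bp between them. A second cluster (chr6:128662385-129472779, 810 kb) held 11 genes, among them Clec12a, Clec1b, Clec9a and Clec7a. RefSeq promoters (GRCm38.p6, 250 bases before to 50 after the start site) were at hand for 25 of the 31 genes. The following 5 are shown because Clec4d with Clec4e and Clec4a1 with Clec4a3 were neighbouring pairs whose levels ran most alike over the groups, and because Clec7a was called in the largest number of comparisons. Capitals mark motif letters found on either strand: GAGGAA (bound by PU.1, the myeloid ETS factor), TTGCNNAA (C/EBP), TGANTCA (AP-1), and the NF-kB and interferon response element (ISRE) consensus letters.
Clec4d: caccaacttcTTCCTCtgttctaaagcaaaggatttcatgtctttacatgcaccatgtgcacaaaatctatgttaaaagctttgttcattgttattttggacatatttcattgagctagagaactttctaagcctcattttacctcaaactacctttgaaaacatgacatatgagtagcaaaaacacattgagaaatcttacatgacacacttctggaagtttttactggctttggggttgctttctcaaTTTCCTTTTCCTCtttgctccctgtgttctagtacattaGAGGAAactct
Clec4e: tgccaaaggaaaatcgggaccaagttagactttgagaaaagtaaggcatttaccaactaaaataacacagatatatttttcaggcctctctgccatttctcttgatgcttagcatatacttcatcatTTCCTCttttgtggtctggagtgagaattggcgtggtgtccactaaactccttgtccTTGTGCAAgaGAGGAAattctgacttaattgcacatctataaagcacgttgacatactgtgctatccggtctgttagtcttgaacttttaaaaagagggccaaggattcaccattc
Clec4a1: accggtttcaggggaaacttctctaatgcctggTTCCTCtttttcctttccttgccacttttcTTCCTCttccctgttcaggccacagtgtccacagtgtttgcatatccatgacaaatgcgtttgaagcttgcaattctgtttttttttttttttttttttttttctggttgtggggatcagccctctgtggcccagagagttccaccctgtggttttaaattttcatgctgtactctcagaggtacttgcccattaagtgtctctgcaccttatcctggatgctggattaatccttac
Clec4a3: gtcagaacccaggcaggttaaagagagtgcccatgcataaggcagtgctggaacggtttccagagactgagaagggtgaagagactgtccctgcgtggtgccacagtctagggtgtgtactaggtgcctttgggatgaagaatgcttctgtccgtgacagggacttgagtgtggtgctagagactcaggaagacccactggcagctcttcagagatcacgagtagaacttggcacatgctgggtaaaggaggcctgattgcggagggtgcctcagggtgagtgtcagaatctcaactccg
Clec7a: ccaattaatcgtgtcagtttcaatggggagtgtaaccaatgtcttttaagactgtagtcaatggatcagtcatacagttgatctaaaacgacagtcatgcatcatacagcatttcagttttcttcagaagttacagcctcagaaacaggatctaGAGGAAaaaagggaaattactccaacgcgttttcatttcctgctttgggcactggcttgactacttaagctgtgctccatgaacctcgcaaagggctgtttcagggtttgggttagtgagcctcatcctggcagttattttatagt

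The GAGGAA letters were found in 14 of the 25 Clec promoters, and 28.3% of the 32851 mouse promoters in the same table hold them. Clec4d had 3 matches to them (first bases at -240, 8 and 40 from the start site), Clec4e had 2 (-123 and -56), Clec4a1 had 2 (-217 and -187) and Clec7a had 1 (-96). Clec4e also held a C/EBP match (-66), letters present in 10.8% of all promoters. Clec4d held an interferon response element match at position 1 (3.44% of all promoters), which overlapped its GAGGAA match at 8. No match was found in the Clec4a3 window, and AP-1 and NF-kB letters (7.81% and 4.79% of all promoters) were in none of the 5. These matches describe letters only.

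Libraries held 3116615 to 14100712 counts. The deleted gene Cflar averaged 40.7 to 69.1 CPM in the HUPO groups that had a control and 21.7 to 219 CPM in control groups, with no call in any of the 6 populations; a count over the whole gene can include reads outside a deleted part. FI1 carried the ankle macrophage label, yet the summed level of the 7 macrophage markers was lowest there among ankle groups (1554 to 1787 CPM in HUPO FI1 and 1757 to 3332 CPM in control FI1), Mertk was at 0 in HUPO FI1, and the 11 neutrophil markers summed to 17872 to 26034 CPM in HUPO FI1 and 16388 to 23093 CPM in control FI1. Some libraries stood apart from their group. Fibroblast markers summed to 8996 and 9394 CPM in control FI1 libraries L1194 and L1392 (612 CPM in control FI1 L1167), and neutrophil markers to 5733 CPM in HUPO CM L1606 and 10291 CPM in HUPO FH1 L1386.

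Between HUPO and control cells, 5 Clec genes were called in at least 1 of the 6 populations, at an adjusted p under 0.05 over all genes tested: Clec7a, Clec4e, Clec4n, Clec5a and Clec4a1. These made 7 calls, 6 of them higher and 1 lower in HUPO cells. The matching numbers for all genes, over any population and by direction, are not given here. The split is therefore not read as a trait of the Clec genes. In CM, 1 of the 21 tested Clec genes was called, against 0.562% of all genes tested. In NCM 2 were called (0.731% of all genes), in FI3 1 (1.07%), in FH1 2 (0.843%) and in FH2 1 (0.651%). None was called in FI1, where 0.225% of all genes were called by edgeR, 2 Clec genes (Clec4a4 and Clec2d) had an unadjusted p under 0.05 and DESeq2 called 2 (Clec1b and Clec4a4). Here and in what follows, called and not called refer to edgeR's test. Shares of all genes are shares called at an adjusted p under 0.05. The share of all genes at an unadjusted p under 0.05 was not counted, here or below. Arms said not to overlap are a description, since full separation of 3 against 3 libraries cannot give an exact permutation p below 0.1. The share of all genes with such arms was not counted, and several genes were picked for it after their values were seen. DESeq2 called Clec4a4, Clec4n and Clec9a in CM, Clec4e, Clec5a and Clec7a in NCM, Clec10a, Clec4a4, Clec4e, Clec4n and Clec7a in FI3, Clec1b, Clec4a1, Clec4a4, Clec4e and Clec4n in FH1, and Clec4a1, Clec4a4 and Clec4n in FH2. Of all genes, DESeq2 called 10.3% in CM, 8.71% in NCM and 7.68% in FI1. It called 9.57% in FI3, 6.41% in FH1 and 6.23% in FH2. The difference between arms varied among the 6 populations for 5 Clec genes by an interaction test (1.32% of all genes): Clec4a1, Clec4e, Clec4n, Clec5a and Clec7a. In a bulk library a lower level can mean fewer cells of a type or less RNA per cell, which cannot be told apart.

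**Figure D1:**
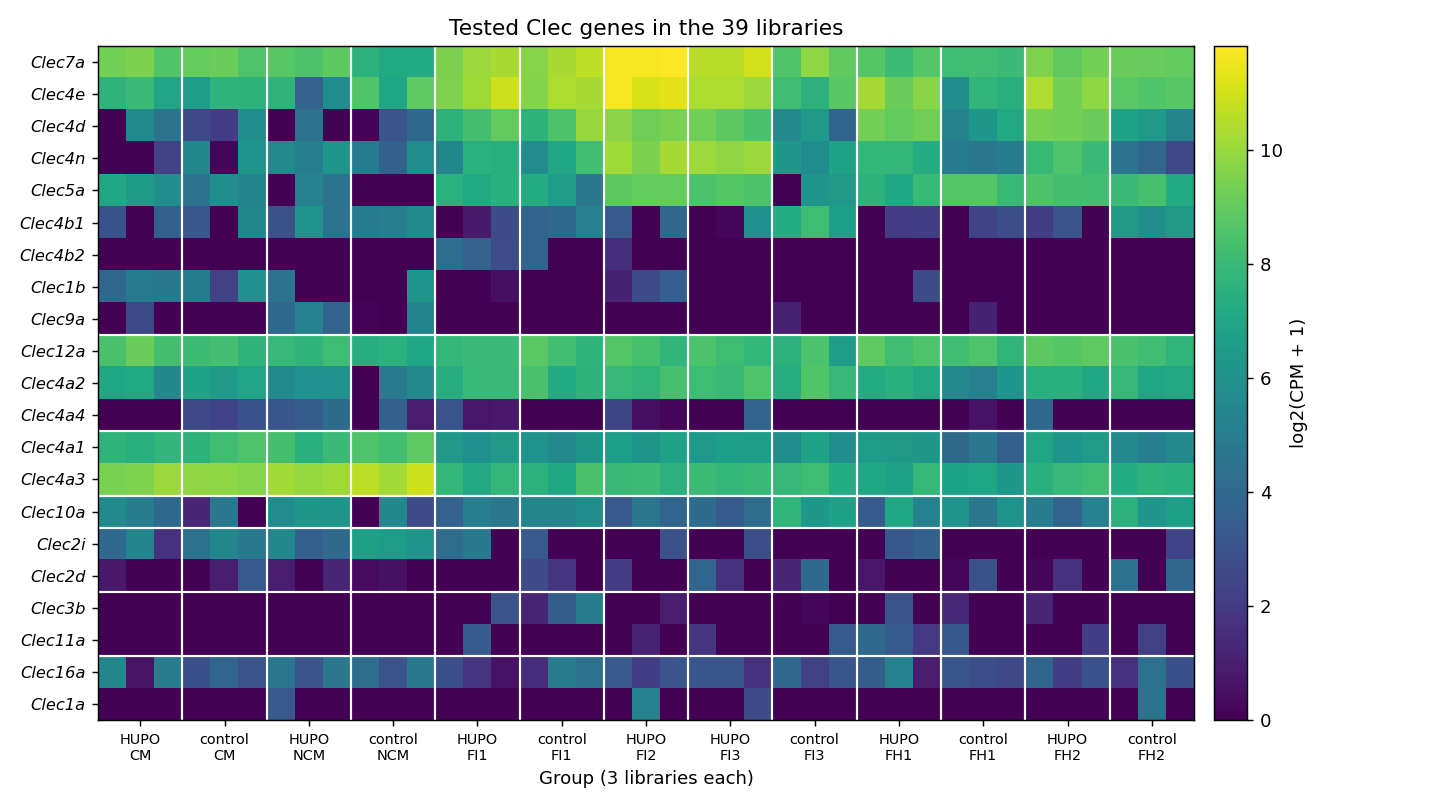
Levels of the 21 tested Clec genes in the 39 libraries, as log2(CPM + 1) on the colour scale. Columns are libraries in groups of 3, rows are genes ordered by role, and white lines separate groups and roles. Clec4a3 is brightest in the 4 blood groups. Clec7a, Clec4e and Clec4d have their highest group means in HUPO FI2, and Clec4n is about as high in HUPO FI3 as in HUPO FI2. Not every ankle group lies above the blood groups for these genes.

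Clec7a encodes Dectin-1, the receptor for fungal beta-glucan, which signals through its own hemITAM. In NCM it had 427, 368 and 459 CPM in HUPO libraries, against 192, 146 and 147 CPM in control libraries. All HUPO NCM values lay above all control values, and the change was 2.59-fold (log2 1.37 ± 0.27 SE, adjusted p = 0.00715, higher in 3 of 3 libraries). In FI3 it had 1519, 1508.4 and 2035 CPM in HUPO libraries, against 386, 899 and 490 CPM in control libraries. Again the groups did not overlap, with a 2.85-fold difference (log2 1.51 ± 0.27 SE, adjusted p = 0.0016). In the other populations the arms lay closer. Clec7a averaged 588 ± 172 CPM in HUPO CM and 490 ± 95.4 CPM in control CM, 1006 ± 273 CPM in HUPO FI1 and 1247 ± 431 CPM in control FI1, 361 ± 78.6 CPM in HUPO FH1 and 280 ± 13.1 CPM in control FH1, and 626 ± 127 CPM in HUPO FH2 and 529 ± 24.4 CPM in control FH2 (SD, n = 3 each). None of these 4 differences was called. The FI3 call held whichever library was left out, and the NCM call missed the threshold without control NCM L1508 (log2 1.31, adjusted p = 0.0502). Fitted to only the 6 libraries compared, neither was called (adjusted p = 0.241 in NCM and 0.12 in FI3).

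Clec4e encodes Mincle, an Fcer1g-coupled receptor for mycobacterial glycolipids and for a protein released by dying cells. In FH1 it had 1200, 571 and 843 CPM in HUPO libraries, against 54.4, 222 and 170 CPM in control libraries. The groups did not overlap, and the difference was 5.86-fold (log2 2.55 ± 0.61 SE, adjusted p = 0.0283). In FI3 the HUPO libraries had 1336, 1330 and 1055 CPM and the control libraries 289, 195 and 429 CPM, a 4.07-fold difference that did not pass the test (adjusted p = 0.123). FH2 values were 1362, 647 and 909 CPM in HUPO libraries and 444, 393 and 427 CPM in control libraries (adjusted p = 0.639). In each of these 3 ankle populations every HUPO library lay above every control library. NCM ran the other way, with 205, 12.3 and 53.3 CPM in HUPO libraries and 391, 126 and 468 CPM in control libraries, values that overlapped (log2 -1.86 ± 0.60 SE, adjusted p = 0.206). The FH1 call was lost without control FH1 L1085 (log2 2.14, adjusted p = 0.283), control FH1 L1194 (2.64, 0.136), HUPO FH1 L1084 (2.24, 0.168) or HUPO FH1 L1386 (2.55, 0.0602).

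Clec4d encodes MCL, the partner of Mincle in a shared receptor complex. It had 588, 452 and 345 CPM in HUPO FI3 libraries, against 46.6, 82.4 and 12.8 CPM in control FI3 libraries. In FH1 it had 649, 510 and 607 CPM in HUPO libraries, against 38.4, 75.4 and 146 CPM in control libraries. FH2 gave 694, 655 and 578 CPM in HUPO libraries and 110, 83.9 and 40 CPM in control libraries. In all 3 populations the lowest HUPO library was above the highest control library. The fitted folds were 9.76, 6.8 and 8.23, with SEs of 1.41, 1.38 and 1.40 on the log2 scale, and no difference passed the test (adjusted p = 0.421 in FI3, 0.692 in FH1 and 0.637 in FH2). In the fit of all 13 groups Clec4d shared its spread with the blood groups, where single libraries of a group ranged between 0 and 55.4 CPM. Fitted to only the 6 libraries compared, it was called in FH2 (adjusted p = 0.021) and not in FI3 (0.0825) or FH1 (0.0591).

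Clec4n encodes Dectin-2, an Fcer1g-coupled receptor for fungal mannan. In FH2 it had 251, 382 and 267 CPM in HUPO libraries, against 21.7, 13.8 and 5.04 CPM in control libraries. The 22.2-fold difference was called (log2 4.47 ± 1.08 SE, adjusted p = 0.0401). In FI3 it had 1102, 932 and 1047 CPM in HUPO libraries, against 78.9, 52.5 and 112 CPM in control libraries (12.7-fold, adjusted p = 0.0943). In FH1 the values were 228, 226 and 160 CPM in HUPO libraries and 27.3, 25.9 and 29.7 CPM in control libraries (7.4-fold, adjusted p = 0.357). The 3 ankle populations each had non-overlapping groups, though only FH2 passed edgeR's test. CM went the other way, with 0, 0 and 4.01 CPM in HUPO libraries and 44.5, 0.138 and 67.6 CPM in control libraries. That difference was called (log2 -4.88 ± 1.16 SE, adjusted p = 0.0396), although control CM L1506 lay below the highest HUPO library. The FH2 call was lost whichever of its 6 libraries was left out (adjusted p = 0.078 to 0.327), and the CM call without control CM L1470 (0.0871), control CM L1508 (0.164), HUPO CM L1505 (0.109) or HUPO CM L1606 (0.191). Fits to only the 6 libraries compared called Clec4n in FI3, FH1 and FH2 (adjusted p = 0.00567, 0.0103 and 0.021) and not in CM.

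Clec5a encodes MDL-1, which signals through Tyrobp. In NCM it had 0, 36.9 and 21.4 CPM in HUPO libraries and no count in the 3 control libraries. The mean HUPO level was at least 161-fold higher than the floor of 3 counts over the control group, and the difference was called (adjusted p = 0.00291), although 1 HUPO library was also at 0. In FI3 it had 349, 414 and 364 CPM in HUPO libraries and 0, 70.4 and 82.5 CPM in control libraries, without overlap and without a call (7.35-fold, adjusted p = 0.275). FH1 leaned the other way, with 197 ± 62.6 CPM in HUPO libraries and 354 ± 91.1 CPM in control libraries (adjusted p = 1).

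**Figure D2:**
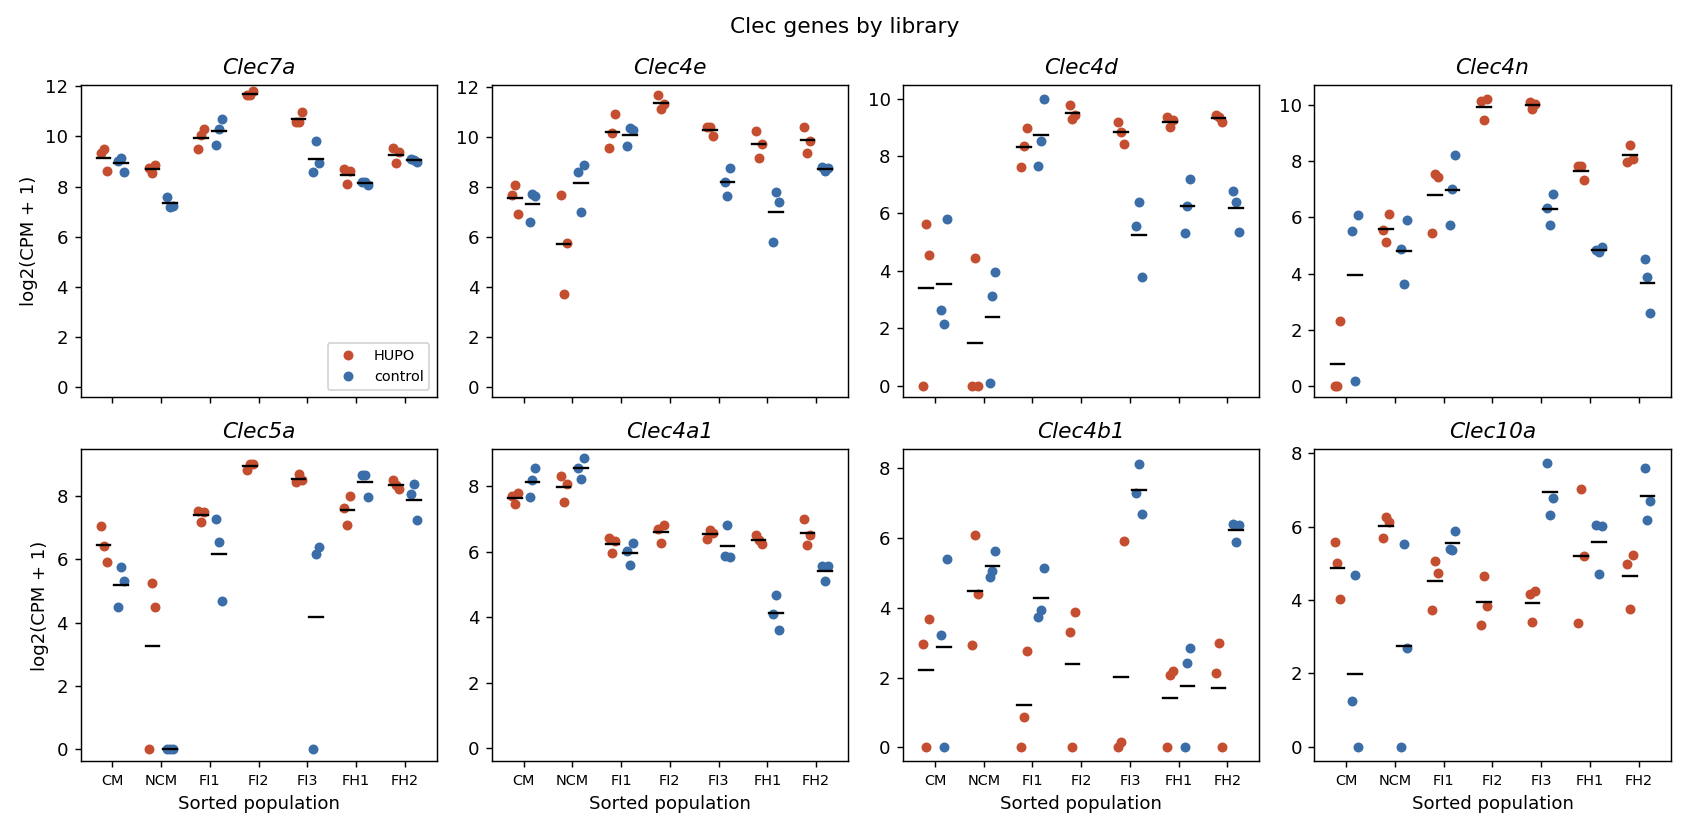
Levels of 8 Clec genes by library, as log2(CPM + 1), for each sorted population. Points are libraries (HUPO left of control in each population, n = 3 each), and bars are means of the plotted values. FI2 was sampled in HUPO mice alone. Clec4d and Clec4n points of HUPO FI3, FH1 and FH2 lie above all control points of the same population, and Clec4b1 points of HUPO FI3 and FH2 lie below them.

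Clec4b1, which encodes the Fcer1g-coupled receptor DCAR, lay in the opposite direction to Clec4n, Clec4d and Clec4e. It had 0, 0.123 and 59.9 CPM in HUPO FI3 libraries, against 156, 281 and 101 CPM in control FI3 libraries. In FH2 it had 3.4, 7.02 and 0 CPM in HUPO libraries, against 84.2, 58.7 and 82.7 CPM in control libraries. Neither pair of groups overlapped, yet neither difference was called (log2 -3.16 ± 2.21 SE, adjusted p = 0.668 in FI3; log2 -4.42 ± 2.35 SE, adjusted p = 0.639 in FH2). Single libraries decided much of the HUPO FI3 mean, 20 ± 34.5 CPM, since 1 of its 3 libraries held nearly all of the counts. Clec4b2, grouped with the activating genes, was found in FI1 (18.5, 12.3 and 6.01 CPM in HUPO libraries, against 12.6, 0 and 0 CPM in control libraries), at 1.88 CPM in 1 HUPO FI2 library, and nowhere else.

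**Figure D3:**
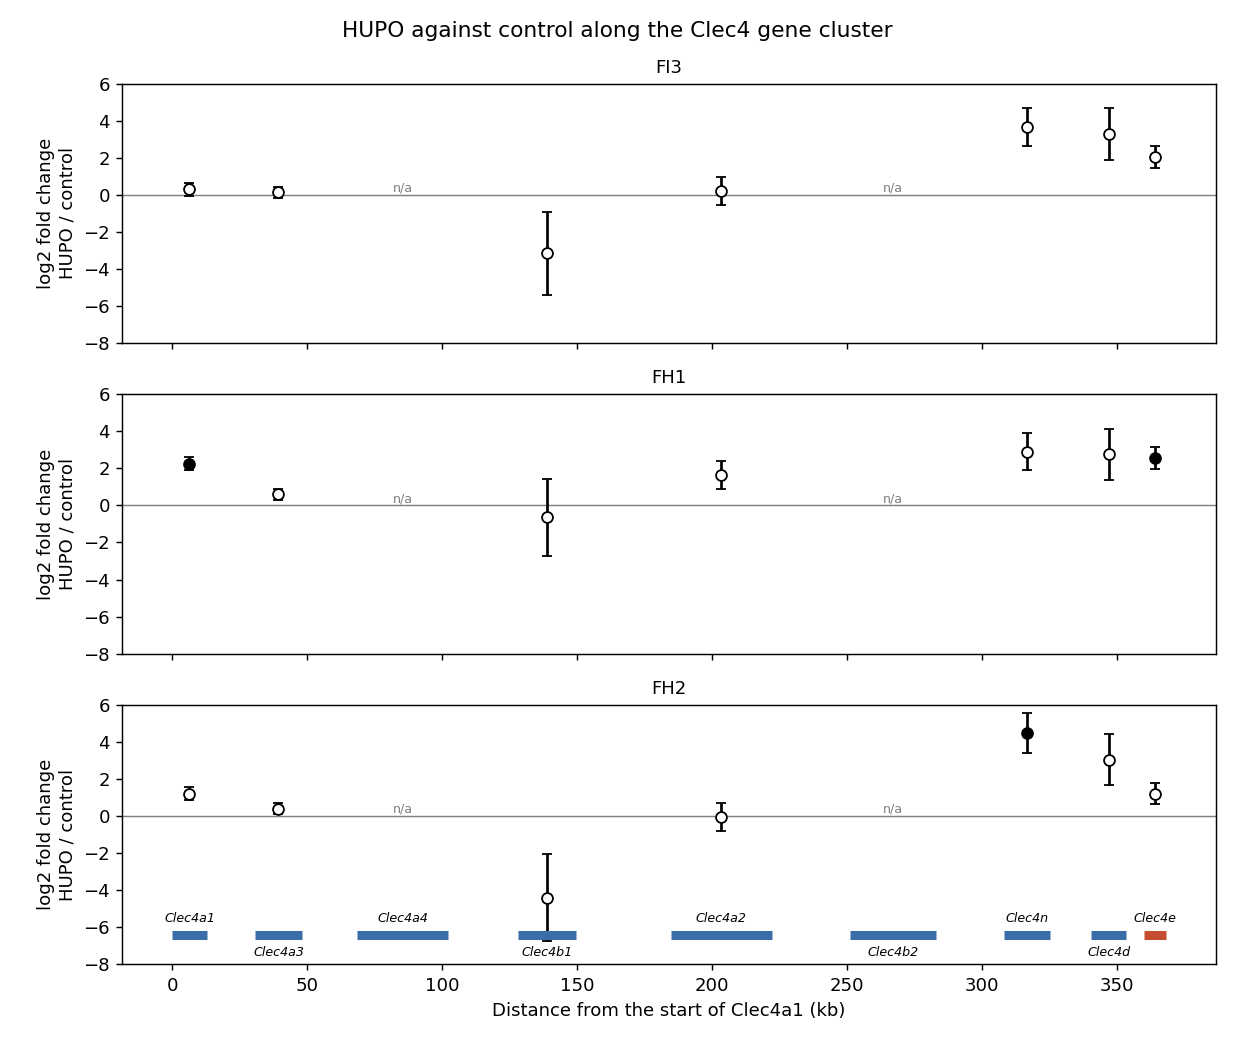
Difference between HUPO and control cells along the Clec4 gene cluster in FI3, FH1 and FH2. The x axis is the distance from the start of Clec4a1 in kb, the y axis the log2 fold change (HUPO over control) with its SE, filled points were called, bars at the bottom are genes (blue on the forward strand, red on the reverse strand), and n/a marks a group with at most 3 counts. Clec4n, Clec4d and Clec4e at the right end lie above 0 in all 3 populations, while Clec4b1 lies below 0.

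Clec1b (CLEC-2, the podoplanin receptor known from platelets) was detected mostly in classical monocytes. It had 13.8, 29.1 and 26.1 CPM in HUPO CM and 30.3, 3.86 and 60.8 CPM in control CM. In NCM it had 21.5, 0 and 0 CPM in HUPO libraries and 0, 0 and 73.9 CPM in control libraries, so 4 of these 6 libraries held none and 1 held the highest level of all. In ankle cells it reached at most 10.5 CPM, in HUPO FI2. The 6 platelet markers summed to 30.3 to 132 CPM in HUPO CM and 229 to 370 CPM in control CM, and their part in the Clec1b level was not tested. Clec9a (DNGR-1, which binds actin exposed on dead cells) had 15.4, 35.4 and 12.7 CPM in HUPO NCM and 0.0718, 0 and 39.9 CPM in control NCM. Its level did not exceed 5.28 CPM in any other library, in HUPO CM L1606. Neither gene was called between arms by edgeR, while DESeq2 called Clec9a in CM and Clec1b in FI1 and FH1. Each of these DESeq2 calls rested on 1 library. Clec9a had 5.28 CPM in HUPO CM L1606, and Clec1b 0.384 CPM in HUPO FI1 L1386 and 5.46 CPM in HUPO FH1 L1386.

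Among inhibitory members edgeR called no difference between arms, while DESeq2 called Clec4a4 in every population but NCM. Those Clec4a4 differences ran in both directions. It had 5.18, 4.14 and 6.97 CPM in control CM and none in HUPO CM. In FI1 it had 7.5, 0.625 and 0.768 CPM in HUPO libraries and none in control libraries. In FI3, FH2 and FH1 its counts came from 1 library each: HUPO FI3 L1386 (12.6 CPM), HUPO FH2 L1084 (14.7 CPM) and control FH1 L1167 (0.489 CPM). Clec12a (MICL, an ITIM receptor for urate crystals) was detected in every library, and its group means spanned 244 to 449 CPM in HUPO groups and 159 to 316 CPM in control groups. The arms did not overlap in CM (407 ± 130 CPM in HUPO and 265 ± 53.7 CPM in control libraries), NCM or FH2, yet edgeR called it in no comparison. For FH against FI cells of HUPO mice, DESeq2 and an edgeR fit to only those groups did call it. Clec4a2 (DCIR) had 154, 182 and 139 CPM in HUPO FH1 libraries, against 45.7, 34.8 and 72 CPM in control FH1 libraries, groups that did not overlap (log2 1.64 ± 0.78 SE, adjusted p = 0.692). In FH2 its arms were level, with 160 ± 22.6 CPM in HUPO libraries and 166 ± 60.7 CPM in control libraries. Clec4a4 (DCIR2) stayed at or below 16.9 CPM in every library. Of its 75-base stretches 12.7% also occur in Clec4a2, so some of its reads cannot be assigned between the pair.

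Clec4a1 and Clec4a3, which encode the DCIR-type receptors DCIR4 and DCIR3 beside Clec4a2, shared a blood-high pattern. In FH1, Clec4a1 had 90.7, 81 and 74.5 CPM in HUPO libraries, against 16, 24.4 and 11.3 CPM in control libraries. No values overlapped, and the 4.74-fold difference was called (log2 2.25 ± 0.35 SE, adjusted p = 0.000196), also with any single library left out. In FH2 it had 127, 72.9 and 90.8 CPM in HUPO libraries and 46.4, 33.5 and 46 CPM in control libraries (2.31-fold, adjusted p = 0.147). In CM it averaged 201 ± 23.3 CPM in HUPO libraries and 288 ± 86.9 CPM in control libraries, and in NCM 255 ± 68.2 CPM in HUPO libraries and 382 ± 83.2 CPM in control libraries, with no call. Clec4a3 was called in no population between arms. In FH1 it averaged 160 ± 64.1 CPM in HUPO libraries and 106 ± 24.9 CPM in control libraries (log2 0.60 ± 0.30 SE, adjusted p = 0.692). In a fit to the 6 FH1 libraries alone the Clec4a1 adjusted p was 0.106.

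Clec10a (MGL1, an endocytic receptor for galactose-type sugars) had 17, 9.5 and 17.9 CPM in HUPO FI3 libraries, against 211, 79 and 109 CPM in control FI3 libraries. FH2 gave 30.8, 12.6 and 36.3 CPM in HUPO libraries and 195, 71.7 and 104 CPM in control libraries. Both pairs of groups were separate, with log2 -3.17 ± 1.41 SE (adjusted p = 0.434) in FI3 and -2.21 ± 1.36 SE (adjusted p = 0.676) in FH2, so edgeR called neither. DESeq2 called Clec10a in FI3. In FI1 Clec10a had 12.3, 32.7 and 25.6 CPM in HUPO libraries, against 41, 40.3 and 58.6 CPM in control libraries, also without overlap. In NCM the HUPO libraries lay higher, at 50.8, 76 and 69.1 CPM, against 0, 45.1 and 5.49 CPM in control libraries. The arms overlapped in CM and FH1. Clec10a was not called by edgeR in any population. Its near copy Mgl2 (4.44% of 75-base stretches of Clec10a are shared with it) averaged 81.2 ± 45.3 CPM in HUPO FI3 and 2527 ± 148 CPM in control FI3, also without a call (adjusted p = 0.351). Dendritic cell markers (7 genes) summed to 54.7 to 215 CPM in HUPO FI3 and 278 to 365 CPM in control FI3, with Itgae at 0 in HUPO FI3 and Kit at 0 in control FI3. Their part in the lower Clec10a and Clec4b1 levels was not tested.

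The remaining members were low. Clec2i (Clr-g, a ligand of a Klrb1-type natural killer cell receptor) was highest in NCM, with 45, 11.3 and 15.8 CPM in HUPO libraries and 106, 87.9 and 68.8 CPM in control libraries, and was not called between arms. Clec2d (Clr-b, also such a ligand) did not exceed 19.9 CPM in any library. Clec3b (tetranectin, a secreted plasma and matrix protein) reached at most 31.4 CPM, Clec11a (a secreted growth factor) 15.3 CPM, Clec1a 36.2 CPM and Clec16a 41.3 CPM. Clec16a, an intracellular regulator of endosomes and mitophagy that shares the name rather than the receptor role, was detected in all 39 libraries, as were Clec12a, Clec4a1, Clec4a3, Clec4e and Clec7a. Among the 5 untested genes with any count, the highest single value was 21.9 CPM, for Clec4g.

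Summed over the 9 activating genes, HUPO FI3 libraries held 4636 to 4906 CPM and control FI3 libraries 957 to 1580 CPM. The sums were 1715 to 2690 CPM in HUPO FH1 and 814 to 1025 CPM in control FH1, and 2499 to 3410 CPM in HUPO FH2 and 1205 to 1476 CPM in control FH2. In FI1 they overlapped, at 1901 to 4064 CPM in HUPO libraries and 2036 to 4284 CPM in control libraries. HUPO FI2 held the highest sums, 7236 to 8995 CPM. The 4 inhibitory genes summed to 535 to 636 CPM in HUPO FI3 and 332 to 741 CPM in control FI3, which overlapped. Their FI1 sums overlapped too, at 398 to 518 CPM in HUPO libraries and 404 to 783 CPM in control libraries. They lay higher in HUPO cells, without overlap, in FH1 (471 to 633 CPM, against 283 to 411 CPM in control). The same held in FH2 (597 to 639 CPM, against 356 to 575 CPM) and NCM (281 to 363 CPM, against 163 to 225 CPM). No test was made on these sums.

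Neutrophils also express Clec4d, Clec4e, Clec4n and Clec7a. Summed neutrophil markers lay higher in HUPO libraries of FI3 and FH1 without overlap, while the arms overlapped in FH2 and FI1. The 11 markers summed to 615 to 1796 CPM in HUPO FI3 and 54.2 to 129 CPM in control FI3, to 1676 to 10291 CPM in HUPO FH1 and 6 to 863 CPM in control FH1, and to 266 to 4456 CPM in HUPO FH2 and 48.4 to 957 CPM in control FH2. Markers at 0 were Cxcr2 in HUPO FI3, Ngp, Ltf, Elane, Mpo and Mmp8 in control FI3, Elane and Mpo in HUPO FH1, Elane, Mpo, Mmp9 and Cxcr2 in control FH1, and Mmp8 and Cxcr2 in control FH2. HUPO FH2 had none at 0. HUPO FH2 L1084 had the lowest sum of its group, 266 CPM, with 694 CPM of Clec4d and 1362 CPM of Clec4e, the highest of its group for both. HUPO FH1 L1386 had 10291 CPM of markers, with 607 CPM of Clec4d and 843 CPM of Clec4e, both between the other 2 libraries of its group. Of 5 classical monocyte markers, Ly6c2, singled out after its values were seen, was called higher in each of FI3, FH1 and FH2 (61.9 CPM in HUPO FI3 and 0 CPM in control FI3, 57.9 CPM in HUPO FH1 and 0.0252 CPM in control FH1, 77.6 CPM in HUPO FH2 and 2.66 CPM in control FH2). The sum of the 5, which was not tested, lay lower in HUPO cells in each of these populations: 1231.3 to 1617 CPM in HUPO FI3 and 1700 to 2085 CPM in control FI3, 1849 to 2181 CPM in HUPO FH1 and 3647 to 6106 CPM in control FH1, and 1259 to 1517 CPM in HUPO FH2 and 1647 to 2765 CPM in control FH2, with Ly6c2 and Vcan among those at 0 in control FI3. The part of neutrophil or monocyte RNA in the Clec differences was not tested.

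**Figure D4:**
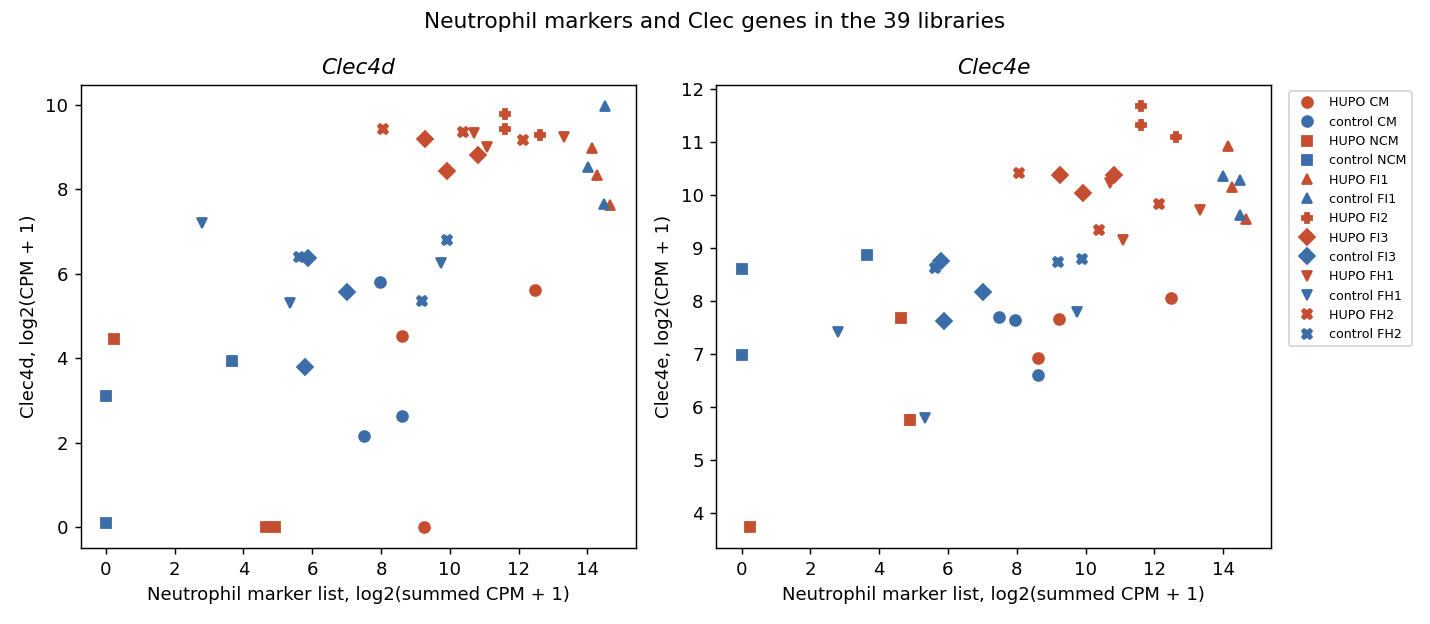
Clec4d (left) and Clec4e (right) against the summed level of 11 neutrophil markers in each of the 39 libraries, both axes as log2(CPM + 1). Colours give the arm and symbols the population. HUPO FI3, FH1 and FH2 libraries lie above the control libraries of the same population in both panels, and HUPO FH2 points do so at sums that span 266 to 4456 CPM.

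Among control populations, 9 of the 21 tested Clec genes were called in a test of any difference (10.8% of all genes): Clec1b, Clec2i, Clec4a1, Clec4a2, Clec4a3, Clec4d, Clec4e, Clec5a and Clec7a. Among HUPO populations 6 were called (8.71% of all genes): Clec4a1, Clec4a3, Clec4d, Clec4e, Clec4n and Clec7a. Per kilobase of annotated exon, Clec4a3 had the highest mean level of the family in all 4 blood groups, 625 to 820 CPM per kb in HUPO blood cells and 662 to 1183 CPM per kb in control blood cells. Clec7a ranked first in HUPO FI1 and FI2 and in control FI1, FH1 and FH2. Clec4n did so in HUPO FI3 (723 ± 60.9 CPM per kb), Clec4d in HUPO FH1 and FH2 (368 ± 44.5 and 402 ± 37.2 CPM per kb), and Clec4b1 in control FI3 (229 ± 117 CPM per kb). Several of these firsts lay within the spread of the next gene: Clec4b1 and Clec7a (224 ± 103 CPM per kb) in control FI3, Clec4n and Clec7a (640 ± 114 CPM per kb) in HUPO FI3, Clec7a (106 ± 4.98 CPM per kb) and Clec5a (92.3 ± 23.7 CPM per kb) in control FH1, and in FI1 Clec7a (381 ± 103 CPM per kb) and Clec4e (257 ± 123 CPM per kb) of HUPO mice and Clec7a (473 ± 163 CPM per kb) and Clec4d (329 ± 266 CPM per kb) of control mice.

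Non-classical against classical monocytes differed in 2 of 21 Clec genes in control mice (0.884% of all genes) and 1 in HUPO mice (1.21%). Control NCM held no Clec5a count, against 21.6, 53.6 and 39 CPM in control CM, at least 314-fold lower (adjusted p = 0.000662). Clec7a averaged 161 ± 26.6 CPM in control NCM and 490 ± 95.4 CPM in control CM (log2 -1.60 ± 0.28 SE, adjusted p = 0.000822). In HUPO mice Clec4n had 46.3, 33.7 and 69.2 CPM in NCM, against 0, 0 and 4.01 CPM in CM (log2 5.29 ± 1.18 SE, adjusted p = 0.0136), a call that was lost without HUPO CM L1505 (4.68, 0.0605) or HUPO CM L1606 (4.67, 0.0877). Clec4a3 was 1569 ± 395 CPM in control NCM and 878 ± 51.1 CPM in control CM, without a call by edgeR (adjusted p = 0.27) and with one by DESeq2.

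FI1 cells of the ankle, set against classical monocytes of blood, differed in 4 Clec genes in each arm (1.88% of all genes in control, 1% in HUPO). In control mice Clec4e (1116 ± 285 CPM in FI1 and 168 ± 62.1 CPM in CM, log2 2.73 ± 0.62 SE, adjusted p = 0.0115) and Clec7a (log2 1.35 ± 0.27 SE, adjusted p = 0.00441) were higher in FI1. Clec4a1 (62.2 ± 14.3 CPM in FI1 and 288 ± 86.9 CPM in CM, adjusted p = 0.000305) and Clec4a3 (225 ± 111 CPM in FI1 and 878 ± 51.1 CPM in CM, adjusted p = 0.000231) were lower in FI1. In HUPO mice Clec4e (1276 ± 608 CPM in FI1 and 196 ± 73.2 CPM in CM, adjusted p = 0.0191) and Clec4n (132 ± 78.4 CPM in FI1 and 1.34 ± 2.32 CPM in CM, adjusted p = 0.00272) were higher, and Clec4a1 (adjusted p = 0.0323) and Clec4a3 (adjusted p = 0.000182) lower in FI1. Neutrophil markers summed to at most 389 CPM in control CM, and their part in these differences was not tested. Without both control FI1 libraries of high fibroblast signal, Clec4a3 alone of the 4 control calls remained, and the adjusted p was 0.0656 for Clec4a1, 0.322 for Clec4e and 0.613 for Clec7a. In HUPO mice the Clec4a1 call was lost whichever of the 6 libraries was left out (0.0517 to 0.178). The Clec4e call was lost without HUPO CM L1505 (0.0646), L1606 (0.0543) or L1739 (0.122) or HUPO FI1 L1386 (0.11), and in control mice without control CM L1470 (0.11) or L1508 (0.0502), which also ended the control Clec7a call (0.0507).

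Within the ankle, HUPO FI2 stood out for Clec7a. It had 3242, 3189 and 3616 CPM in HUPO FI2 libraries, against 712, 1054 and 1251 CPM in HUPO FI1 libraries, 3.33-fold higher (log2 1.74 ± 0.28 SE, adjusted p = 0.000354) and the 1 Clec gene called in that comparison (0.9% of all genes). It stayed called with any library left out. Neutrophil markers summed to 3100 to 6317 CPM in HUPO FI2 and 17872 to 26034 CPM in HUPO FI1, and their part was not tested. Clec4e averaged 2677 ± 551 CPM, Clec4n 1008 ± 260 CPM, Clec4d 729 ± 134 CPM and Clec5a 497 ± 40.5 CPM in HUPO FI2. Against HUPO FI3 no Clec gene was called by edgeR (0.00803% of all genes), 2 had an unadjusted p under 0.05 (Clec7a and Clec1b) and DESeq2 called the same 2 (6.74% of all genes).

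The other ankle contrasts gave few calls. Control FI3 against control FI1 gave 1 (1.94% of all genes), a lower Clec7a (591 ± 271 CPM in FI3 and 1247 ± 431 CPM in FI1, adjusted p = 0.0303). This was lost without control FI1 L1194 (adjusted p = 0.0638), control FI1 L1392 (0.241), control FI3 L1085 (0.185) or control FI3 L1470x4 (0.155). HUPO FI3 against HUPO FI1 gave none by edgeR (1.26% of all genes), 4 at an unadjusted p under 0.05 and 2 by DESeq2 (9.15% of all genes). FH2 against FH1 gave none by edgeR in control mice (0.394% of all genes) or in HUPO mice (0.0643% of all genes). At an unadjusted p under 0.05 there were 6 in control mice and 3 in HUPO mice, and the share of all genes at that cutoff was not counted. DESeq2 called 3 in control mice (4.32% of all genes) and 2 in HUPO mice (4.19%). Taking FH1 and FH2 together against FI1 and FI3, control mice had 4 lower Clec genes (3.94% of all genes): Clec4a1, Clec4a3, Clec4n and Clec7a, with log2 fold changes of -1.35, -0.71, -2.56 and -1.16. HUPO mice had 1 (1.98%), Clec7a, at log2 -1.45 ± 0.19 SE (adjusted p = 1.24e-05). The FI side includes FI1, with 16388 to 23093 CPM of neutrophil markers in control and 17872 to 26034 CPM in HUPO mice, whose part was not tested. In control mice Clec7a averaged 1247 ± 431 CPM in FI1, 591 ± 271 CPM in FI3, 280 ± 13.1 CPM in FH1 and 529 ± 24.4 CPM in FH2. Fitted to only these control groups, Clec4n and Clec7a stayed called, and Clec4a1 (adjusted p = 0.106) and Clec4a3 did not. Clec7a and Clec4a1 kept their calls with any library left out. Clec4a3 kept its call only without control FI1 L1194 or control FI3 L1470x4 (adjusted p = 0.0529 to 0.229 without each of the other 10). Clec4n kept its call only without control FI1 L1167, control FI1 L1194, control FI3 L1167 or control FH2 L1085x5 (0.0554 to 0.105 without each of the other 8).

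Over the 13 group means of log2(CPM + 1), the pair of tested Clec genes with the highest correlation was Clec4a1 and Clec4a3 (Pearson r 0.93, Spearman rho 0.91), followed by Clec4d and Clec4e (0.88 and 0.81). The lowest was Clec4a3 and Clec4d (-0.80 and -0.51). The group means share libraries, depth and tissue, and the values are a description.

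Of 31 genes for signalling downstream of the receptors, 3 were called in FI3 (2 higher and 1 lower in HUPO cells, beside 1.07% of all genes), 1 in FH2 (higher, 0.651%) and 1 in NCM (higher, 0.731%). Tyrobp was higher in FI3 (1206 ± 146 CPM in HUPO FI3 and 714 ± 68.1 CPM in control FI3, log2 0.76 ± 0.19 SE, adjusted p = 0.0326). The transcription factor Irf5 was lower in FI3 (246 ± 58.5 CPM in HUPO FI3 and 628 ± 104 CPM in control FI3, adjusted p = 0.00094). The adaptor Lat2 was higher in NCM (170 ± 91.2 CPM in HUPO NCM and 49.8 ± 17 CPM in control NCM, adjusted p = 0.014), where the arms overlapped. None of the 31 was called in CM, FI1 or FH1. Fcer1g averaged 1553 ± 30.9 CPM in HUPO FI3 and 1088 ± 144 CPM in control FI3, and Syk 343 ± 74.6 CPM in HUPO FI3 and 131 ± 98.7 CPM in control FI3, neither called (adjusted p = 0.388 and 0.123).

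Of 43 lectin-type genes without a Clec symbol 31 were tested. Between arms 0 to 2 were called per population, beside 0.225% to 1.07% of all genes. Cd302 was higher in CM (377 ± 153 CPM in HUPO CM and 128 ± 71.8 CPM in control CM, adjusted p = 0.025). Klra2 was higher in FH1 (11 ± 6.7 CPM in HUPO FH1 and 0.489 ± 0.847 CPM in control FH1, adjusted p = 0.0397). Cd209a, a relative of the DC-SIGN receptor, averaged 36.3 ± 31.5 CPM in HUPO FI3 and 1465 ± 277 CPM in control FI3, and was not called (adjusted p = 0.242). Of 7 genes for described ligands, 1 was called between arms, a lower Anxa1 in NCM, where 0.731% of all genes were called. Anxa1 averaged 159 ± 55.3 CPM in HUPO NCM and 458 ± 61.5 CPM in control NCM (adjusted p = 0.000291).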

How the data were processed

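The deposited tables hold raw counts of reads per gene symbol, one table per library, without normalization; the submitters' processing notes name FastQC, STAR, HTSeq, Cufflinks and the build mm10, with versions and settings not given in the sources used here. Libraries were made with SMART-Seq v4 and Nextera XT and read as single 75-base reads, per the labels' protocols. Per the series' design text, the authors had removed low-quality libraries, the least correlated control libraries, and HUPO F4/80-high libraries rich in neutrophil genes. The control spread is therefore that of libraries kept for their likeness.

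Counts were filtered with filterByExpr, scaled by TMM and fitted with edgeR 4.0.16 (R 4.3.3) by the quasi-likelihood test with robust dispersion, as 13 group means over 39 libraries (26 residual degrees of freedom). P-values were two-sided and Benjamini-Hochberg adjusted over all 12450 genes tested, and a gene was called at an adjusted p under 0.05. Values are mean ± SD over 3 libraries, and a fold change comes with its standard error (SE). An exact permutation of 3 against 3 libraries cannot give a p below 0.1, so none was used. Counting-error limits were 3 counts per group. PCR reads carry no molecular identifiers. The pipeline was also run on simulated counts with far less spread than these data (median trended dispersion 2.29). That run therefore does not show the power or the false calls to be had here.

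Alternatives were DESeq2 1.42.0, relative log expression scaling, no filter, a fit to only the groups compared, a replicate block, each library left out, and 2 control FI1 libraries left out together. The Clec genes, the other gene lists and the tests were chosen with earlier results of these data known. Every Clec gene is named. Values per library are given for those called in at least 1 comparison (mean of at least 10 CPM in the highest group). They are also given for Clec4d, Clec4b1, Clec10a and some others whose arms did not overlap, chosen after their values were seen. Not every population with separate arms is listed for each gene. From each other list up to 4 genes with the smallest p are named (some genes are not reported here), plus Fcer1g, Mgl2, Cd209a and Ly6c2, chosen after their values were seen.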

Additional observations from a re-analysis of the deposited data

Results flagged for a closer look

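For 5 Clec genes the difference between HUPO and control cells was itself different among the 6 populations, by edgeR's quasi-likelihood test of the interaction with Benjamini-Hochberg adjustment over all genes (1.32% of all genes were called). The adjusted p was 0.00228 for Clec4a1, 0.00299 for Clec4n, 0.0189 for Clec7a, 0.0203 for Clec4e and 0.043 for Clec5a. Clec4n had a log2 fold change of 4.47 in FH2 and -4.88 in CM, and Clec4e one of 2.55 in FH1 and -1.86 in NCM (the NCM value was not called). Clec4a1 had 2.25 in FH1 and -0.58 in NCM (not called). Clec7a had 1.51 in FI3 and -0.31 in FI1 (not called). Clec5a was counted in 2 of 3 HUPO NCM libraries and in no control NCM library, and had -0.85 in FH1 (not called). The Clec5a call was lost without the filter on low counts (adjusted p = 0.0653), in the fit to only the groups compared (0.0653), and in every refit that left out 1 library except those without HUPO CM L1505, HUPO NCM L1505, control FI1 L1167, control FI1 L1392, control FI3 L1085 or control FI3 L1470x4. The Clec4e call was lost without control NCM L1508 or HUPO NCM L1739. The Clec7a call was lost without control FI1 libraries L1194 and L1392 together (0.106). Clec4a1 and Clec4n kept their calls in all of these refits.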

How the results depend on the processing

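No called Clec difference reversed under any alternative run. Of 25 called pairwise values, DESeq2 and relative log expression scaling each kept 25, no filter kept 22, and a fit to only the groups compared kept 6 of 24; with 1 library left out 128 of 180 refits kept the call. Relative log expression moved the log2 fold changes of the tested Clec genes by a median of up to -0.13 (HUPO against control FI3). Counts of called Clec genes that moved by over 1.5 times, and the smaller changes of the any-difference and interaction tests, are given next; the cause was not tested. DESeq2 gave 3 against 1 in CM, 3 against 2 in NCM, 2 against 0 in FI1, 5 against 1 in FI3, 5 against 2 in FH1 and 3 against 1 in FH2 (HUPO over control). DESeq2 called 6.23% to 10.3% of all genes between arms and 4.19% to 14.5% between populations. Between populations it gave 4 against 2 for control NCM over CM, 7 against 4 for FI1 over CM in each arm, 3 against 1 for control FI3 over FI1, 3 against 0 for control FH2 over FH1, 8 against 4 for control FH over FI, 2 against 1 for HUPO NCM over CM, 2 against 0 for HUPO FI3 over FI1, FH2 over FH1 and FI2 over FI3, 3 against 1 for HUPO FH over FI, and 2 against 1 for HUPO FI2 over FI1. Fitted to only the groups compared, HUPO over control counts were 0 in CM (0.132% of all genes) and 0 in NCM (0.104%). They were 2 in FI3 (1.21%), 1 in FH1 (1.03%) and 2 in FH2 (1.11%). Between populations they were 0 for control NCM over CM (0.288%) and 0 for HUPO NCM over CM (0.266%). FI1 over CM had 1 in control (0.503%) and 0 in HUPO mice (0.321%). FI3 over FI1 had 0 in control (0.871%) and 2 in HUPO mice (3.05%). HUPO mice had 3 for FH over FI (4.65%) and 2 for FI2 over FI1 (1.61%). In such fits any-difference tests gave 6 among control populations (9 in the full fit), beside 8.93% of all genes. Among HUPO populations they gave 8 (6 in the full fit), beside 8.8%. The interaction gave 4 (5 in the full fit), beside 1.36%. With no filter the CM and FH2 counts were 0 (0.37% and 0.495% of all genes). Control FH over FI then had 3 (2.97%) and the interaction 4 (1.05%). Without control FI1 libraries L1194 and L1392 the counts were 1 for control FI1 over CM, 0 for control FI3 over FI1, 2 for control FH over FI, 6 for any difference among control populations and 4 for the interaction.

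With 1 library left out, HUPO over control counts ranged 0 to 1 in CM, 1 to 3 in NCM, 0 to 0 in FI1, 1 to 1 in FI3, 1 to 2 in FH1 and 0 to 0 in FH2. Between populations they ranged 2 to 2 for control NCM over CM, 2 to 4 for control FI1 over CM, 0 to 1 for control FI3 over FI1, 0 to 0 for control FH2 over FH1, 2 to 4 for control FH over FI, 0 to 2 for HUPO NCM over CM, 2 to 3 for HUPO FI1 over CM, 0 to 0 for HUPO FI3 over FI1, FH2 over FH1 and FI2 over FI3, and 1 to 1 for HUPO FH over FI and FI2 over FI1. Any-difference tests ranged 6 to 10 in control and 5 to 6 in HUPO populations, and 3 to 5 for the interaction. The share of all genes called varied with the library left out, from 0.322% to 0.891% between arms in CM. It is not given for each refit. Deviations of same-numbered libraries from their group means correlated at -0.014 to 0.046. The highest correlation with a library of another number was -0.018 to 0.015. The same-numbered value was the higher in most cases, though not in HUPO FI3 against FI1. Values this small cannot settle whether such libraries share an animal, and the main fit did not take the numbers as pairs. With the number as a replicate block, control FI3 over FI1 had 0 calls (Clec7a -0.79, adjusted p = 0.466), beside 0.964% of all genes. Control FH over FI had 3 (Clec4a3 lost, adjusted p = 0.176), beside 3.1%. The block could not be fitted for HUPO against control or FI1 against CM, and DESeq2 was not run for the any-difference tests. Totals of 3116615 to 14100712 counts limit low members such as Clec4b2 and Clec9a.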
